A study of Homo sapiens with 9 samples.

Results

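Condensin and cohesin are ring-shaped complexes that fold and hold DNA, and 10 genes encoding their subunits were followed here, taken by name from the 64253 genes in the count files. They comprised the 8 condensin subunits SMC2, SMC4, NCAPD2, NCAPG, NCAPH, NCAPD3, NCAPG2 and NCAPH2 and the 2 SMC subunits of cohesin, SMC1A and SMC3. Each symbol matched 1 gene identifier, and all 10 genes passed the filter on low counts that left 16561 genes to test. RNA was sequenced from IMR90, a human fetal lung fibroblast strain with a limited lifespan in culture, at population doubling 30 under 2% oxygen. There were 3 groups of 3 libraries, with replicates lettered a, b and c. Every library came from cells infected with pLKO.1 lentiviruses in 2 rounds 24 hours apart and kept in puromycin (3 ug/mL) for 7 days. The control group received vector alone, which the sample labels call empty and the treatment protocol calls GFP. The shRRM2 group received a hairpin against RRM2, a subunit of ribonucleotide reductase, and is labelled senescence by depletion of deoxyribonucleotides. The shRRM2/shp16 group received that hairpin and a hairpin against p16, the product of CDKN2A that restrains entry into the cell cycle, and is labelled senescence bypass. Each target had 1 hairpin, and no group carried shp16 alone.

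SMC proteins are long coiled-coil ATPases that pair at a hinge, and a kleisin subunit closes the ring by joining their heads. SMC2 and SMC4 form the core of both condensins, which compact chromosomes for mitosis. Condensin I adds the kleisin NCAPH with the HEAT-repeat subunits NCAPD2 and NCAPG, and condensin II adds NCAPH2, NCAPD3 and NCAPG2. Cohesin is built on SMC1A and SMC3 with the kleisin RAD21 and a STAG subunit, and it holds sister chromatids together from S phase and extrudes chromatin loops in interphase. Transcripts of many mitotic genes, condensin subunits among them, are known to be low in cells that have left the cell cycle.

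The 9 libraries held 15770895 to 24873291 gene counts each. Among uniquely aligned reads, 17.6% to 18.9% were assigned to no feature by the authors' counting in control. That share was 27.7% to 28.8% in shRRM2 and 23.5% to 24.4% in shRRM2/shp16. Whether such reads lay in introns or between genes was not examined. The share moved with the groups, and its part in the results was not tested. RRM2 stood at 485 ± 5.23 CPM (counts divided by a scaled library total, in the usual unit) in control, 62.1 ± 1.86 in shRRM2 and 177 ± 3.00 in shRRM2/shp16, and CDKN2A at 6.02 ± 0.113, 6.50 ± 0.464 and 4.28 ± 0.321 CPM (mean ± SD, n = 3 each). The counts are per gene, so the CDKN2A values do not single out the transcript of p16. RRM2 was thus higher in the doubly targeted cells than with shRRM2 alone, which holds for every comparison of these 2 groups below. All 10 fibroblast markers examined had at least 10 counts in every library, with summed levels of 26910 to 27770 CPM in control, 26390 to 27180 in shRRM2 and 22210 to 22800 in shRRM2/shp16, and the part of that lower sum in the results was not tested. Epithelial, endothelial and leukocyte markers summed to 1.26 to 2.69, 0.953 to 2.54 and 2.15 to 3.27 CPM over the 9 libraries, with KRT5, SFTPC and CD3E at 0 in all of them. Nothing in the labels tells separate cultures from repeat preparations, so p-values measure the spread between these libraries only.

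Promoter sequence was searched, without a test, for short words that are described in promoters of cell cycle genes. For 9 members the RefSeq promoter table (GRCh38.p14) gave 250 bases before at least 1 annotated start. These windows were searched on both strands for CCAAT, for TTTGAA or TTTAAA (the core of cell cycle homology elements), and for the E2F-type words TTTGGCGC, TTTCCCGC, TTTCGCGC and TTTGCCGC. CCAAT occurred in 3 of the 9 members (NCAPD2, NCAPH and NCAPD3), against 37.0% of the 27305 genes in the table. TTTGAA or TTTAAA occurred in 4 of 9 (SMC4, NCAPD2, NCAPG and SMC3), against 25.5%, and an E2F-type word in 2 of 9 (NCAPD3 and SMC1A), against 3.40%. A gene counted if any of its windows matched, and genes differ in their number of windows. NCAPD3 and SMC1A each had a further window without an E2F-type word. The matching windows of SMC4, NCAPD2, NCAPD3 and SMC1A lay wholly within annotated exons, and the NCAPG match was also in an exon. Only the matches of NCAPH and SMC3 lay outside exons. Within the members' windows no match overlapped another. SMC2 and NCAPG2 held none of these letters. A match describes the letters and not a bound site. The 2 stretches below are those of the members with the largest and the smallest fall in shRRM2, limited to bases outside annotated exons. They lie on the plus strand at chr2:96335516-96335765 for NCAPH and chr10:110567445-110567690 for SMC3 and read 5′ to 3′ toward the gene. Capitals mark CCAAT in NCAPH and TTCAAA, the reverse complement of TTTGAA, in SMC3.
NCAPH promoter: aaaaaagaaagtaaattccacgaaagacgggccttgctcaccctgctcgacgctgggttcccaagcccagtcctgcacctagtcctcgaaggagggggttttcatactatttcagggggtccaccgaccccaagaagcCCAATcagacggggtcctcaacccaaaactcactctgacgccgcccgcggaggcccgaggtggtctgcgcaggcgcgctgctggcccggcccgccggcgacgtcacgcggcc
SMC3 promoter: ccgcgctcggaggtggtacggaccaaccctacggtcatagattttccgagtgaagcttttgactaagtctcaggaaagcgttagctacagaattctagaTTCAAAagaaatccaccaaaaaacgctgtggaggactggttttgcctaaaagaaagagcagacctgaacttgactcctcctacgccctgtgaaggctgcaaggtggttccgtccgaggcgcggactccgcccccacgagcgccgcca

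All 10 genes were lower in shRRM2 than in control. Their RNA fell to between 30.9% of the control level for NCAPH and 81.5% for SMC3, and 9 of the 10 fell to 56.0% or less. The median log2 fold change of the 10 was -1.13, beside 0.00235 over all 16561 tested genes. Falls were common in this comparison, since 31.8% of tested genes were called lower and 29.0% higher at an adjusted p under 0.05, and it is against that share that the 10 of 10 has to be read. No member's shRRM2 libraries overlapped its control libraries. How many of all tested genes were likewise apart was not counted, for this comparison or those below. In RNA from whole cultures, fewer dividing cells and less RNA per cell cannot be told apart.

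Both SMC subunits of the condensin core fell. SMC2 (ENSG00000136824; GRCh38 chromosome 9, 104094260 to 104141417, plus strand) was at 89.0, 86.6 and 78.1 CPM in control a, b and c and at 49.3, 48.1 and 45.2 CPM in shRRM2. Its log2 fold change was -0.84 ± 0.05 (SE), with an adjusted p of 3.67e-19. SMC4 (ENSG00000113810; chromosome 3, 160399274 to 160434962, plus strand) went from 227, 232 and 223 CPM to 108, 108 and 104 CPM. It fell by 1.09 on the log2 scale (SE 0.03, adjusted p 4.65e-29), with every shRRM2 library below every control library. SMC4 shares 2518 bases with TRIM59 on the opposite strand, a gene that itself had a log2 fold change of -0.92. It also shares 607 bases with IFT80 on that strand, whose own log2 fold change was 0.02. A further opposite-strand gene, AC079594.2, shares 35689 bases with SMC4 and had at most 1 count in a library. How the authors' counting used strand is not given in the sources used here.

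Condensin I held the largest falls. NCAPH (ENSG00000121152; chromosome 2, 96335787 to 96373845, plus strand), the condensin I kleisin, stood at 69.3, 68.3 and 70.8 CPM in control and at 21.6, 21.6 and 21.3 CPM in shRRM2. The fitted log2 fold change was -1.69 ± 0.05 (SE, adjusted p 6.23e-29), which ranked 129 from the lowest among the tested genes. The 3 shRRM2 libraries were close to each other and all below the lowest control library. NCAPG (ENSG00000109805; chromosome 4, 17810902 to 17844862, plus strand), a HEAT-repeat subunit, read 131, 137 and 134 CPM in control against 52.3, 53.9 and 52.3 CPM. NCAPD2 (ENSG00000010292; chromosome 12, 6493356 to 6531955, plus strand), the other HEAT-repeat subunit and the most abundant member per length in control, went from 242, 240 and 249 CPM to 99.4, 104 and 99.9 CPM. NCAPG fell by 1.34 and NCAPD2 by 1.27 on the log2 scale (adjusted p 1.68e-29 and 1.18e-31). The levels left were 39.4% of control for NCAPG and 41.5% for NCAPD2. On the opposite strand NCAPG shares 3664 bases with LCORL and NCAPD2 486 bases with MRPL51, whose own log2 fold changes were 0.13 and -0.38.

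The 3 subunits of condensin II alone had a median log2 fold change of -0.94, beside -1.34 for the 3 of condensin I, a difference that was not tested. NCAPG2 (ENSG00000146918; chromosome 7, 158631311 to 158704829, minus strand), a HEAT-repeat subunit, was at 131, 134 and 131 CPM in control and 56.7, 57.6 and 60.7 CPM in shRRM2. Its fall of 1.18 on the log2 scale (adjusted p 4.18e-27) was the largest of the 3. NCAPH2 (ENSG00000025770; chromosome 22, 50508216 to 50523472, plus strand), the condensin II kleisin, went from 59.8, 55.6 and 58.5 CPM to 30.9, 29.8 and 30.0 CPM. NCAPD3 (ENSG00000151503; chromosome 11, 134150119 to 134225454, minus strand), a HEAT-repeat subunit, went from 90.0, 95.8 and 88.2 CPM to 51.0, 50.7 and 44.3 CPM. NCAPH2 fell by 0.94 and NCAPD3 by 0.91 on the log2 scale (adjusted p 5.59e-20 and 1.97e-20), to 52.1% and 53.3% of control. NCAPD3 overlaps JAM3 and VPS26B on the opposite strand, whose own log2 fold changes were 0.10 and -0.08.

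**Figure D1:**
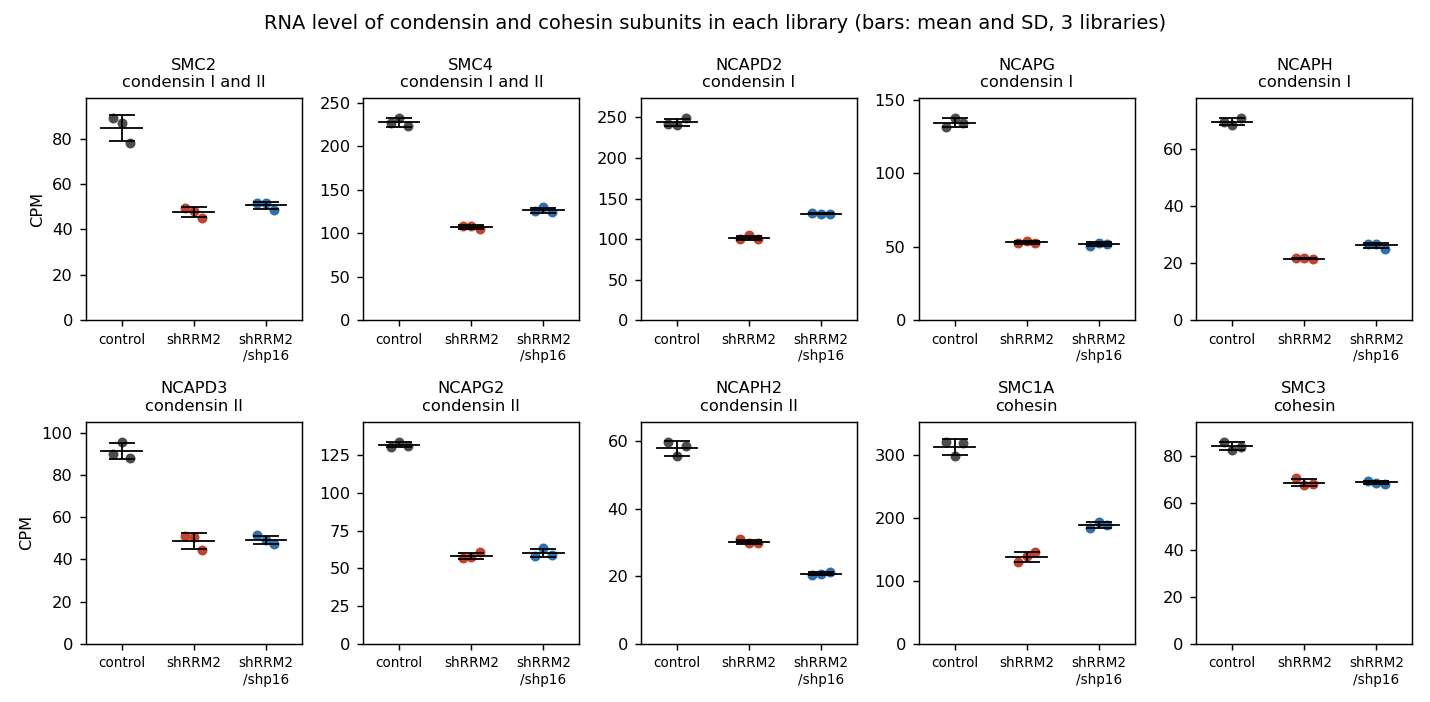
RNA level of each subunit in CPM (vertical axis, from 0) in the 3 control, 3 shRRM2 and 3 shRRM2/shp16 libraries, 1 panel per gene; points are libraries a, b and c from left to right, and bars give the group mean and SD. Control libraries lie above all others in every panel, SMC3 shows the smallest step, from 84.3 to 68.8 CPM, and NCAPH2 is the 1 gene whose shRRM2/shp16 libraries all lie below its shRRM2 libraries.

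The 2 SMC subunits of cohesin parted. SMC1A (ENSG00000072501; chromosome X, 53374149 to 53422728, minus strand) stood at 321, 298 and 318 CPM in control and at 130, 139 and 146 CPM in shRRM2. Its log2 fold change of -1.18 ± 0.04 (SE, adjusted p 2.16e-29) equalled that of the condensin II subunit NCAPG2 to 2 decimals. SMC3 (ENSG00000108055; chromosome 10, 110567691 to 110604636, plus strand), its partner in the ring, went from 86.2, 82.7 and 84.1 CPM to 70.7, 67.8 and 68.0 CPM. The groups did not overlap for SMC3, and its change of -0.30 ± 0.04 (SE, adjusted p 3.47e-08) passed the test, yet 24.4% of all tested genes lay at or below that value. For the other 9 members the same share ran from 0.779% for NCAPH to 4.90% for SMC2.

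Adding the p16 hairpin was followed by a mixed pattern. Against shRRM2, 4 of the 10 genes were higher in shRRM2/shp16 (SMC4, NCAPD2, NCAPH and SMC1A), 1 was lower (NCAPH2), and 5 did not pass the test (SMC2, NCAPG, NCAPD3, NCAPG2 and SMC3). Over all genes 31.9% were called higher and 29.1% lower, so 4 of 10 higher is near the share of all genes and 1 of 10 lower is below it. The median log2 fold change of the members was 0.066, beside 0.0115 for all tested genes. Of all calls 52.3% were higher in the edgeR fit of the counts, 62.4% with limma on the 9 deposited log2 columns and 59.2% with limma on the 8 that match their counts.

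SMC1A moved the most of the 4 that rose. Its shRRM2/shp16 libraries read 184, 194 and 188 CPM, all above the highest shRRM2 library at 146 CPM, for a log2 fold change of 0.45 ± 0.04 (SE, adjusted p 2.62e-14). NCAPD2 stood at 132, 131 and 131 CPM, a rise of 0.38 on the log2 scale (adjusted p 1.12e-12). Neither regained its control level, and SMC1A remained at 60.3% and NCAPD2 at 53.9% of it. NCAPH rose to 26.6, 26.8 and 25.0 CPM, by 0.28 ± 0.06 (SE, adjusted p 9.48e-05), and SMC4 to 125, 130 and 124 CPM, by 0.24 ± 0.04 (SE, adjusted p 1.02e-07). The rises of NCAPH and SMC4 were small and lost their call when limma was run on all 9 of the authors' log2 columns, with adjusted p of 0.191 and 0.475, 1 of which, that of shRRM2 replicate c, differs from its count file. On the 8 columns that match, both passed.

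NCAPH2, the kleisin of condensin II, went the other way. Its shRRM2/shp16 libraries read 20.2, 20.7 and 21.1 CPM, below the lowest shRRM2 library at 29.8 CPM. The log2 fold change was -0.55 ± 0.06 (SE, adjusted p 1.64e-10), which left 35.6% of the control level. Both hairpins together thus left NCAPH2 as the member furthest below control, a place NCAPH held with shRRM2 alone.

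The remaining 5 members had shRRM2/shp16 libraries that overlapped those of shRRM2. SMC2 read 51.5, 51.4 and 48.6 CPM (log2 fold change 0.090, adjusted p 0.13), NCAPG 50.2, 52.6 and 51.8 CPM (-0.036, adjusted p 0.502) and NCAPD3 51.4, 49.0 and 47.5 CPM (0.020, adjusted p 0.756). NCAPG2 read 58.2, 63.2 and 58.7 CPM (0.042, adjusted p 0.434) and SMC3 69.7, 68.7 and 68.2 CPM (0.0010, adjusted p 0.985). Standard errors of these 5 were 0.04 to 0.05 on the log2 scale, small beside the changes of SMC1A and NCAPH2. With limma on the 8 matching columns of the authors' log2 values NCAPG2 was not called either (adjusted p 0.082), and it passed when those columns were taken as log2(RPKM + 0.1), a setting added after the data were seen (0.13, adjusted p 0.0332).

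**Figure D2:**
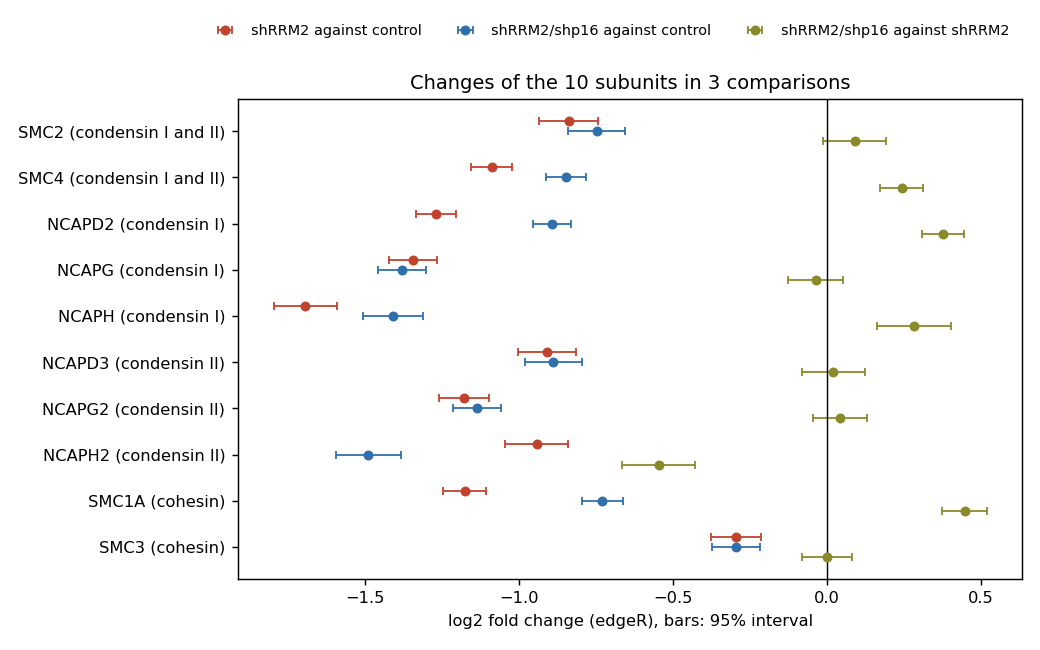
Fitted log2 fold change (horizontal axis) of each subunit in 3 comparisons, with 95% intervals as bars. Values against control run from -1.69 (NCAPH in shRRM2) to -0.29 (SMC3 in shRRM2/shp16), and between the hairpin groups from -0.55 (NCAPH2) to 0.45 (SMC1A).

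The authors tested shRRM2/shp16 against shRRM2 themselves. The authors' deposited table marks NCAPH and NCAPH2 as significant and none of the other 8 members, NCAPH with a log2 fold change of 0.31 (q 0.00571) and NCAPH2 with -0.43 (q 0.0045). For SMC1A, NCAPD2 and SMC4 the authors' deposited table lists changes of 0.42, 0.41 and 0.25 with q of 0.0785, 0.556 and 0.435. These 3 have sizes near those fitted from the counts and were not marked by the authors. The authors' deposited table also lists NCAPD3 at -0.28 (q 0.493), where the counts gave 0.020.

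Set against control, all 10 genes were still lower in shRRM2/shp16, at a median of -0.89 on the log2 scale beside 0.0147 for all tested genes. The share of tested genes called lower here was 32.4% and called higher 30.0%. Of all calls 48.1% were higher in the edgeR fit and 59.5% with limma on the 9 deposited log2 columns, and all 10 members were lower in both. NCAPH2 was lowest with -1.49 ± 0.05 (SE, adjusted p 7.44e-27), followed by NCAPH at -1.41 and NCAPG at -1.38. SMC3 changed least with -0.29 ± 0.04 (SE, adjusted p 1.96e-08), at 81.6% of control. The other 6 members were at 45.5% (NCAPG2) to 60.3% (SMC1A) of control. This comparison shares its libraries with the previous ones, so the values stand side by side and are not independent.

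Levels of different genes were compared per length, as CPM per kilobase of the gene length behind the authors' table. In control the order ran NCAPD2 at 37.6 ± 0.723, SMC1A at 29.8 ± 1.21, NCAPG at 27.3 ± 0.625, SMC4 at 26.9 ± 0.555 and NCAPH at 21.2 ± 0.380 CPM per kilobase (mean ± SD, n = 3). It continued with SMC3 at 19.7 ± 0.414, NCAPG2 at 18.9 ± 0.248, NCAPH2 at 18.4 ± 0.692, SMC2 at 13.1 ± 0.887 and NCAPD3 at 10.0 ± 0.432. Neighbours whose libraries overlapped were NCAPG with SMC4 and NCAPG2 with NCAPH2. In shRRM2 SMC3 headed the order at 16.1 ± 0.382 CPM per kilobase, overlapping NCAPD2 at 15.6 ± 0.425, while SMC1A at 13.2 ± 0.750 overlapped SMC4 at 12.6 ± 0.264. Below them lay NCAPG at 10.7, NCAPH2 at 9.57, NCAPG2 at 8.35, SMC2 at 7.35, NCAPH at 6.55 and NCAPD3 at 5.34 CPM per kilobase, with no overlap between neighbours. NCAPH thus went from the fifth place to the ninth and SMC3 from the sixth to the first. In shRRM2/shp16 NCAPD2 at 20.3 ± 0.0766 and SMC1A at 18.0 ± 0.472 led again, ahead of SMC3 at 16.1, SMC4 at 14.9, NCAPG at 10.5 and NCAPG2 at 8.59 CPM per kilobase. NCAPH at 7.97 overlapped SMC2 at 7.81, and NCAPH2 at 6.55 and NCAPD3 at 5.41 closed the order.

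**Figure D3:**
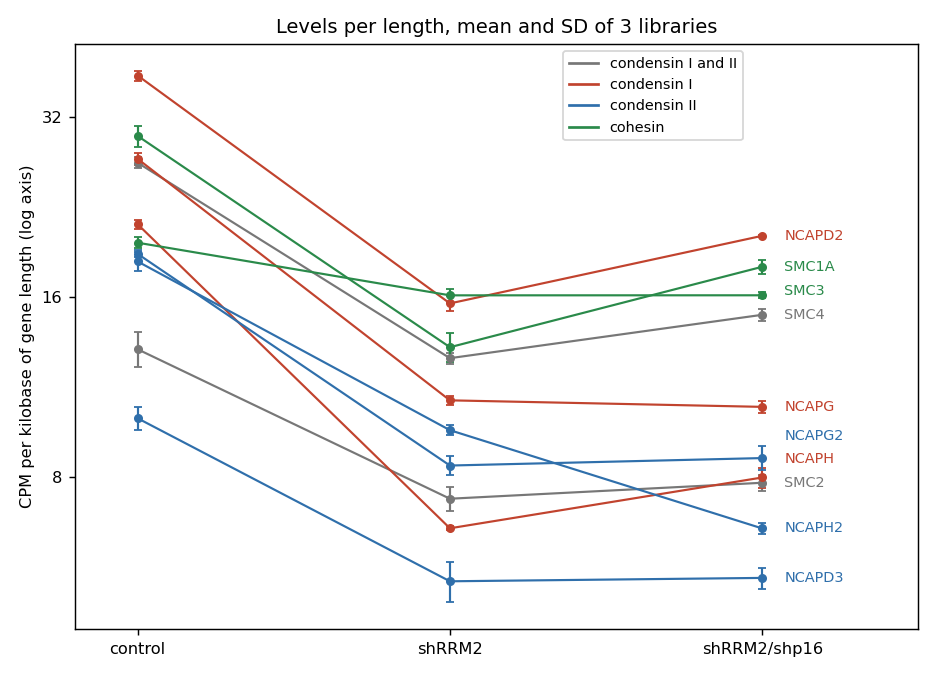
Mean level per length (CPM per kilobase of gene length, log axis) of the 10 subunits in the 3 groups, with SD of 3 libraries as bars and colours by complex. Lines cross between control and shRRM2 where NCAPH drops from 21.2 to 6.55 and SMC3 only from 19.7 to 16.1, and NCAPH2 is the 1 line that falls clearly from shRRM2 to shRRM2/shp16.

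Ratios of 2 subunits within 1 library do not depend on library scaling, and they were compared as descriptions without a test. The kleisin ratio NCAPH to NCAPH2, counts per base of condensin I over condensin II, was 1.12, 1.18 and 1.17 in control a, b and c. It was 0.673, 0.697 and 0.685 in shRRM2 and 1.27, 1.25 and 1.14 in shRRM2/shp16. Per base of the gene length behind the authors' table, NCAPH was therefore above NCAPH2 in control and below it in shRRM2. NCAPH was above again with both hairpins, where the libraries overlapped those of control. Which of the 2 is higher depends on those lengths, while the change between groups does not. From shRRM2 to shRRM2/shp16, NCAPH2 changed by -0.55 and NCAPH by 0.28 on the log2 scale. That left them at 35.6% and 37.7% of control. On the log2 scale the mean ratio differed by -0.75 between shRRM2 and control and by 0.83 between shRRM2/shp16 and shRRM2.

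The same was done for the other condensin pairs. NCAPD2 to NCAPD3 was 3.76 ± 0.223 in control, 2.93 ± 0.219 in shRRM2 and 3.75 ± 0.143 in shRRM2/shp16, with shRRM2 below both and the outer groups overlapping. NCAPG to NCAPG2 went from 1.44 ± 0.0168 to 1.29 ± 0.0568 and 1.22 ± 0.0354, and the latter 2 groups overlapped. All 3 condensin I to condensin II ratios from the counts were thus lower in shRRM2 than in control. NCAPG to NCAPG2 changed by the least, -0.17 on the log2 scale. That change was -0.064 with the deposited values in place of counts, where the column of shRRM2 replicate c differs from its count file. In shRRM2/shp16, 2 of the 3 ratios overlapped the control libraries again. The 2 SMC subunits of condensin, SMC2 to SMC4, stood at 0.487 ± 0.0276, 0.581 ± 0.0146 and 0.523 ± 0.0133.

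In cohesin the SMC1A to SMC3 ratio was 1.52, 1.47 and 1.54 in control, 0.749, 0.836 and 0.873 in shRRM2 and 1.07, 1.15 and 1.13 in shRRM2/shp16. SMC1A was above SMC3 per length in control and below it in every shRRM2 library, and the 3 groups did not overlap. Here too, which of the 2 is higher depends on the lengths. Ratios of raw counts averaged 3.70 in control, 2.01 in shRRM2 and 2.74 in shRRM2/shp16. Across the complexes, SMC2 to SMC3 was 0.663 ± 0.0430, 0.456 ± 0.0155 and 0.485 ± 0.0119. SMC4 to SMC1A was 0.903 ± 0.0551 in control and 0.961 ± 0.0721 in shRRM2, which overlapped, and 0.831 ± 0.0137 in shRRM2/shp16.

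**Figure D4:**
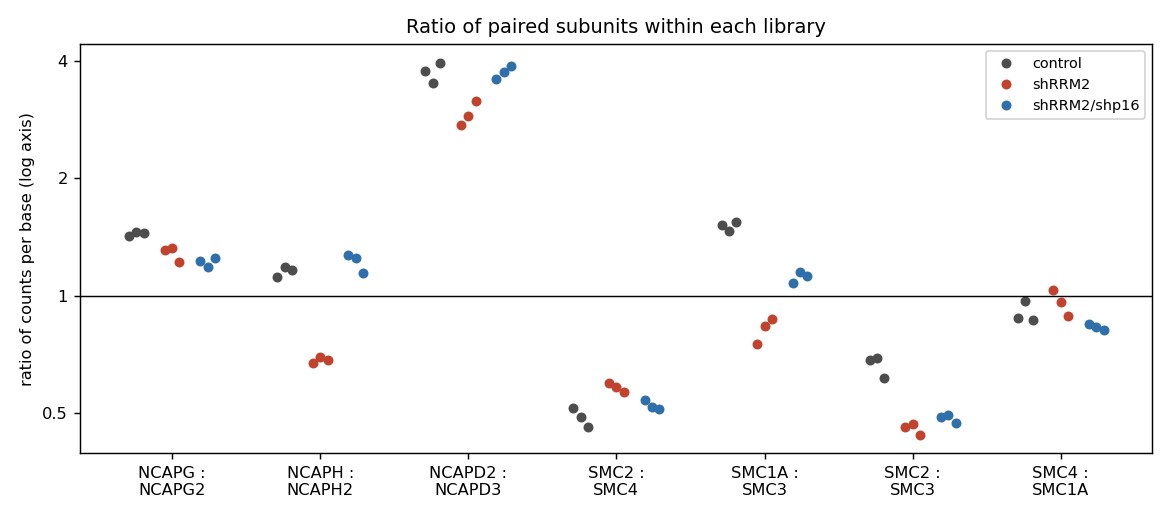
Ratio of counts per base of paired subunits (log axis) in each library, with a line at 1. The NCAPH to NCAPH2 ratio crosses 1 downward in shRRM2 (0.673 to 0.697) and upward in shRRM2/shp16 (1.14 to 1.27), and SMC1A to SMC3 lies below 1 in the 3 shRRM2 libraries alone.

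The genes whose log2 CPM followed a member most closely over the 9 libraries were sought for 3 members by Pearson correlation, given as a description because the 9 points fall into 3 groups. For NCAPG they were KCNMA1, a potassium channel subunit (r = 0.999), SRSF2, a splicing factor (0.999), and PABPC4, a poly(A)-binding protein (0.999). NCAPG2 was followed by TPX2, a spindle assembly factor (r = 0.999), KIAA1524, an inhibitor of the phosphatase PP2A (0.998), and the splicing factor SRSF3 (0.998). These 6 genes had log2 fold changes from -0.46 (PABPC4) to -1.64 (TPX2) in shRRM2 against control and from -0.031 (KCNMA1) to 0.061 (TPX2) between the hairpin groups. SMC1A was followed by HNRNPM, an RNA-binding protein (r = 0.996), the chemokine CXCL12 (0.996) and the co-chaperone FKBP4 (0.996), whose log2 fold changes from shRRM2 to shRRM2/shp16 were 0.27, 0.76 and 0.44. Among the members, NCAPG and NCAPG2 were nearest to each other (r = 0.996) and SMC1A was nearest to NCAPD2 (r = 0.990) and furthest from NCAPH2 (r = 0.721).

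Other genes of these pathways were counted from 6 lists. Of the remaining mitotic cohesin subunits, RAD21 and STAG1 were lower in shRRM2 than in control, against 31.8% of all tested genes. STAG2 was not called. RAD21, the kleisin, went from 284 ± 5.05 to 146 ± 5.43 CPM (log2 fold change -0.96, adjusted p 6.7e-28), and STAG2 was at 93.4 ± 3.52 and 94.7 ± 2.10 CPM (0.023, adjusted p 0.622). The cohesin ring subunits therefore ranged from SMC1A at -1.18 through RAD21 at -0.96 and STAG1 at -0.37 to SMC3 at -0.30 and STAG2. RAD21, STAG1 and STAG2 were all higher in shRRM2/shp16 than in shRRM2, against 31.9% of all tested genes. Their changes ran from STAG1 by 0.088 (adjusted p 0.0434) to STAG2 by 0.40 (adjusted p 1.04e-12). STAG2 was also higher than in control, by 0.42 (adjusted p 1.01e-13). Of 4 meiotic cohesin genes, SMC1B and RAD21L1 had at most 5 counts in a library and were not tested, STAG3 was lower in shRRM2 (-0.76, adjusted p 6.63e-05), and REC8 was not called (0.27, adjusted p 0.126).

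Genes that load, release or establish cohesion were counted beside the same shares of all tested genes, 31.8% lower and 29.0% higher in shRRM2 and 29.1% lower and 31.9% higher with the p16 hairpin added. Of 11, 7 were lower and 2 higher in shRRM2 than in control (median -0.27 on the log2 scale), and 3 were lower and 6 higher in shRRM2/shp16 than in shRRM2. The shares of 2 higher and of 3 lower are no more than those of all genes. The 2 extremes were CDCA5 (sororin, which protects cohesion) at -0.97 and ESCO1, an acetyltransferase of SMC3 active throughout interphase, at 0.91. ESCO2, the acetyltransferase tied to replication, was at -0.90. CDCA5 fell again with the p16 hairpin, from 37.9 ± 1.22 to 27.7 ± 1.64 CPM (-0.45, adjusted p 5.13e-09), and CTCF, which halts cohesin on chromatin, rose from 55.0 ± 1.85 to 88.0 ± 3.43 CPM (0.68, adjusted p 2.21e-17). The 6 genes of cohesin cleavage and protection were all lower in shRRM2, where 31.8% of all tested genes were, with a median of -1.20, from PPP2R5A at -0.19 to separase (ESPL1) at -1.77. Of these 6, 4 were higher in shRRM2/shp16 than in shRRM2, against 31.9% of all tested genes, PPP2R5A by the most (0.64), and SGO2 was at -0.069 and not called (adjusted p 0.389).

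The SMC5/6 complex, a further SMC complex that acts in DNA repair, was called lower about as often as genes at large. Of its 9 genes 3 were lower, 1 higher and 5 not called in shRRM2, with a median of -0.14, where 31.8% of all tested genes were lower and 29.0% higher. SMC5 was higher than in control, at 89.6 ± 0.762 against 61.9 ± 3.61 CPM (0.54, adjusted p 1.39e-14), SMC6 was not called (adjusted p 0.992), and NSMCE4A was lowest at -0.73. Between the hairpin groups 3 were higher and 3 lower, from EID3 at 0.44 to SLF1 at -0.37, shares near the 31.9% and 29.1% of all tested genes. Of the SMC ATPases, the 4 members thus fell in shRRM2 while SMC5 rose.

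The 12 partners of condensin on mitotic chromosomes, among them topoisomerase II, Ki-67 and the mitotic kinases, had the lowest median, -1.62, with 11 lower and 1 not called, against 31.8% of all tested genes lower. PLK1, a kinase that phosphorylates condensin, was lowest at -2.13 (adjusted p 7.18e-37), and MCPH1, which restrains condensin II in interphase, was at -0.11 (adjusted p 0.264). In shRRM2/shp16 10 of the 12 were higher than in shRRM2, with a median of 0.24, against 31.9% of all tested genes higher. TOP2A, which untangles DNA alongside condensin, rose from 229 ± 7.32 to 382 ± 10.8 CPM (0.74, adjusted p 1.44e-24), and AURKB was not called (-0.026, adjusted p 0.74). Against control the list had a median of -1.35 in shRRM2/shp16, with 10 lower and 2 not called, against 32.4% of all tested genes lower.

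**Figure D5:**
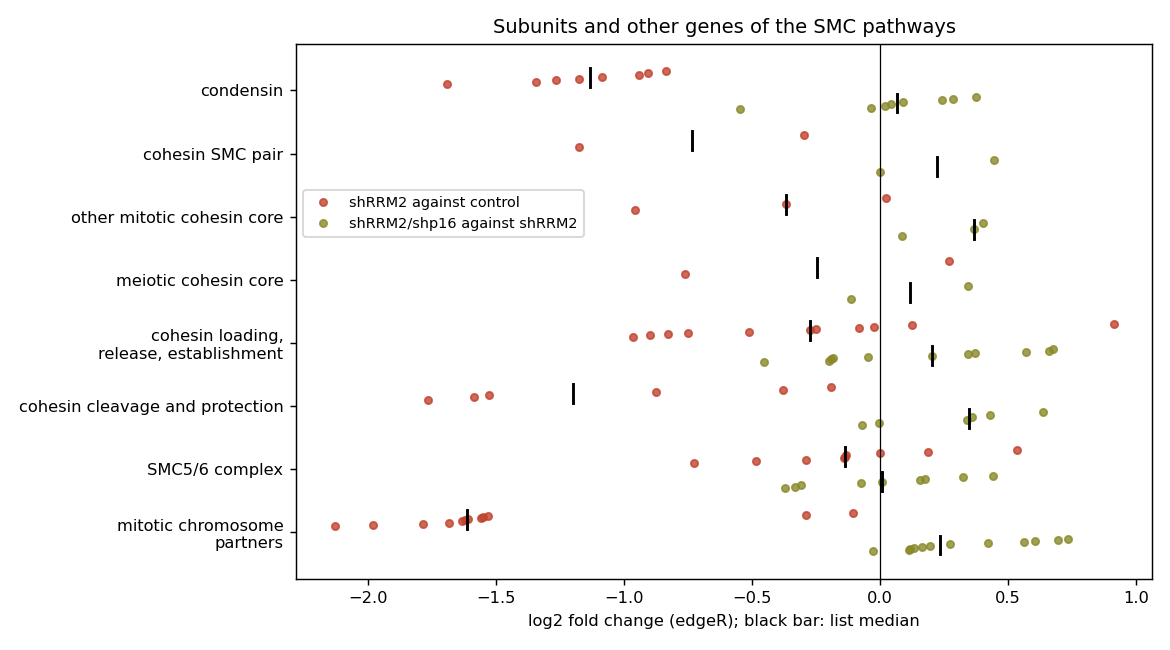
Fitted log2 fold change (horizontal axis) of the tested genes of each list for the step from control to shRRM2 and the step from shRRM2 to shRRM2/shp16; points are genes and black bars list medians. The mitotic chromosome partners have the lowest median in shRRM2 (-1.62), the condensin subunits lie at -1.13, and the SMC5/6 genes lie around -0.14.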

How the data were processed

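RNA from 9 IMR90 libraries was analysed from the authors' deposited raw read counts per Ensembl gene. The authors also deposited a table of log2 values of counts per base (log2(x + 1)) for each library, and, per the file headers, their own log2 fold change, p-value and q-value comparing the hairpin groups. The submitters' processing notes name TopHat2 2.0.9, Cufflinks 2.0.2, Cuffdiff and GRCh38. The extract protocol in the labels describes stranded libraries after removal of ribosomal RNA. Each log2 column was checked through the gene length that it and its counts imply, against the median of that length over the 9 columns. The check covered 11623 to 12237 of the better-counted genes per column. In 8 columns at least 99.8% of these genes matched within 0.1%, and in that of shRRM2 replicate c 0.939% did. Lines naming no gene stayed out of library sizes.

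Counts were tested with edgeR 4.0.16 (filterByExpr, TMM, glmQLFit and glmQLFTest, 9 libraries in 1 fit, 6 residual degrees of freedom), two-sided, with Benjamini-Hochberg adjustment over 16561 genes and a threshold of 0.05. The pipeline was also run on simulated counts with far fewer changed genes than were called here. That run therefore does not measure error rates in these data. CPM are counts over the TMM-scaled library size on the usual scale, and SE was derived from the F statistic. Alternatives used RLE factors, DESeq2 1.42.0, other filters, a replicate block, omitted libraries, and limma 3.58.1 on the authors' log2 values or log2(RPKM + 0.1). Positions came from GENCODE on GRCh38, promoters from RefSeq. The genes and lists were chosen with earlier results of these data known. The text names the 10 subunits, the highest and lowest gene of each list, the 3 nearest genes of NCAPG, NCAPG2 and SMC1A, and the targeted genes, and other names were chosen after their values were seen. The protein comparison planned for the SMC subunits was not run. The value of 1 marker gene is not reported here.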

Additional observations from a re-analysis of the deposited data

How the results depend on the processing

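All 10 members stayed lower than control, in shRRM2 and in shRRM2/shp16, under each of 19 alternatives. With a replicate block 10 of 10 were lower in shRRM2, and no member's call changed in any comparison. Same-letter libraries did not deviate together (r from -0.0198 to 0.0486), so the letters were not read as pairs. Between the hairpin groups, 2 members were higher in place of 4 with limma on the 9 deposited log2 columns and also with log2(RPKM + 0.1), where SMC4 and NCAPH lost their calls. Direction turned for 3 uncalled members near 0. SMC3 was at -0.00885 with RLE factors, -0.008785 with at least 10 counts in every library, -0.00682 in the 6 libraries compared, and -0.008865 to 0.02136 with 1 library left out, below 0 without shRRM2 b (-0.008865), shRRM2 c (-0.007859) or shRRM2/shp16 a (-0.003672). NCAPD3 ranged from -0.04478 (without shRRM2 c) to 0.05554 with 1 library left out, and was at -0.006808 without shRRM2/shp16 a, -0.0003071 on the deposited log2 scale and -0.05101 with log2(RPKM + 0.1). NCAPG was at 0.0001472 and 0.01345 on the 8 matching columns. The cause was not tested. Of the log2 ratios, 8 moved with deposited values in place of counts, none in sign. All 8 involve the shRRM2 group, whose replicate c column differs from its count file, and none compares shRRM2/shp16 with control. For shRRM2 against control and then for the hairpin groups, NCAPG to NCAPG2 was at -0.064 and -0.18, NCAPH to NCAPH2 at -0.62 and 0.70, SMC2 to SMC4 at 0.16 and -0.056, and SMC4 to SMC1A at 0.21 and -0.33. Low counts limit REC8, STAG3 and the untested meiotic genes.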
